A study of Mus musculus with 28 samples.

Results

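Olfactory receptors are the odorant-sensing proteins of the nose, and their genes, named Olfr in the mouse, form the largest gene family of the genome. The protein-coding genes of mouse chromosome 7 whose symbol starts with Olfr were placed in domains of H3K9me2, a histone mark of repressed chromatin. The annotation holds 244 such genes of 21755 protein-coding genes on chromosomes 1 to 19 and X, under 243 symbols because Olfr290 names a pair of gene models. A further 891 Olfr genes lie on other chromosomes.

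Olfactory receptors are receptors with several membrane-spanning helices that couple to G proteins, and a mature olfactory neuron expresses a single allele of a single receptor gene. In that neuron the remaining receptor genes sit in chromatin methylated at H3K9, and the methyltransferases EHMT2 and EHMT1 take part in setting up this choice. The family has a class I, whose mouse genes lie together on chromosome 7 around the beta-globin genes, and a larger class II spread over many chromosomes. Neither embryonic stem cells nor cleavage-stage cells are a place where these receptors are known to work in smell.

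The series comprised 28 libraries, 14 from native chromatin immunoprecipitation with an H3K9me2 antibody and 14 from matched input chromatin of mouse embryonic stem cells (mESCs). In all of them both copies of the endogenous Ehmt2 gene carried a degron, HA tags and an mCherry reporter, so that the degrader dTAG-13 removes the EHMT2 protein. Cells of a line that also carried a MERVL-GFP reporter were kept for 72 h in DMSO, the solvent control, or in dTAG-13, and were then separated by GFP. The negative cells are called mESCs and the positive ones 2-cell-like cells (2CLCs), which make up a small share of such cultures and share features with the embryo at the 2-cell stage. Each of these 4 conditions had 3 immunoprecipitation and 3 input libraries, and bulk mESCs after 24 h in DMSO had 2 of each. Per the labels the line is a BL6/129 hybrid, and per the study's methods the sorted cells came from 1 clone. Per the labels, the retinoic acid receptor agonist TTNBP was given to 2 of the replicates, without saying which, while the study's methods mention it for the sorted cells without that limit.

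The deposited data analysed here are 5 lists of domain positions, 1 for each sorted condition and 1 whose name gives neither cell state nor treatment, called the unnamed set below and assigned to no group. The sorted sets are written mESC DMSO, mESC dTAG, 2CLC DMSO and 2CLC dTAG. A gene was counted as inside a set where the first base of its GENCODE M21 model lay in a domain, and as leaving or entering where this changed from DMSO to dTAG. No list has replicates and the depth behind the lists is unknown, so no difference between sets could be set against the spread between cultures and none was tested. Domain positions say where the mark stood out over input and are not read as its amount. The study reports a lower global level of the mark after EHMT2 depletion. Whether the cutoffs for domains were set list by list was not given, so entering a domain need not mean a gain of the mark.

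Several stretches of 250 bases are shown first. They belong to the receptors with the largest change in distance to a domain edge in mESCs, among those that left or entered. A large change in this distance need not mean a wide loss or gain. Olfr17 was added as a receptor whose start stayed inside every set. Each stretch is the sequence directly before the gene start in GRCm38.p6 (the mm10 build of the domains), 5′ to 3′ on the strand of the gene. Capitals mark matches, on either strand, to CCCNNGGG, the core of the site of the Ebf factors, and to TAATTA or TAATGA, cores bound by homeodomain factors. TAATTA reads the same on both strands, TAATGA reads TCATTA on the other strand, and matches of different motifs may overlap. Olfr521 (chr7:99763257-99763506, plus strand) entered domains in both cell states, and Olfr520 (chr7:99730023-99730272, plus strand) in 2CLCs. Olfr652 (chr7:104560651-104560900, plus strand) left in mESCs, and Olfr484 (chr7:108127450-108127699, minus strand) left in both. Olfr17, also known as the receptor P2, has chr7:107092970-107093219 on the plus strand.
Olfr521: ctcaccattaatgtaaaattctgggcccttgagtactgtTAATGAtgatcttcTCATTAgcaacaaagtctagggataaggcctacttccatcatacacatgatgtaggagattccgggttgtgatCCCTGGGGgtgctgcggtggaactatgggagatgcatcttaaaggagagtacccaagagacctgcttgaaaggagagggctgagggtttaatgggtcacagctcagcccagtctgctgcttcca
Olfr520: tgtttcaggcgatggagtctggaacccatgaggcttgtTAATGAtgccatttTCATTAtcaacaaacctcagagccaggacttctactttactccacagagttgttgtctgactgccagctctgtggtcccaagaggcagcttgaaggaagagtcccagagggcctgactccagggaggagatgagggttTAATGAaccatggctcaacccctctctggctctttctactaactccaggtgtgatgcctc
Olfr652: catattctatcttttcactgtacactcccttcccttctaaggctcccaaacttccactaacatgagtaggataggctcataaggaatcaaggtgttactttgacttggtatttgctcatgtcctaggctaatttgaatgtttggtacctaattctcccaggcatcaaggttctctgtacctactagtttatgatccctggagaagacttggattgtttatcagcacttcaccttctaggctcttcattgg
Olfr484: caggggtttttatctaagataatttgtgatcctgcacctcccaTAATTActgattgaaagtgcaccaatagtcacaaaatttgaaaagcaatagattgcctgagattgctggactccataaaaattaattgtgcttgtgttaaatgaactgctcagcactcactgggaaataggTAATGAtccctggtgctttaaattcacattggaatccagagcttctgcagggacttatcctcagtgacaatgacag
Olfr17: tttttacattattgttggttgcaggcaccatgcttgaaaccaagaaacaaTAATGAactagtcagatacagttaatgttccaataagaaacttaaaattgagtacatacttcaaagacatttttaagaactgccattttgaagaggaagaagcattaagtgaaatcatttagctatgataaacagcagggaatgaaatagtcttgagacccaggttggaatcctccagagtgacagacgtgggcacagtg

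The neighbours Olfr521 and Olfr520 both held TAATGA facing TCATTA near the far end of the stretch, and Olfr521 also held a CCCNNGGG match. Olfr484 held 1 TAATTA and 1 TAATGA match, Olfr17 held 1 TAATGA match and Olfr652 held none of the 3 motifs. Across the 250 bases before each start, TAATTA or TAATGA occurred in 41.4% of the 244 chromosome 7 Olfr genes, in 49.5% of the 891 Olfr genes elsewhere and in 12.6% of all 21755 protein-coding genes. CCCNNGGG occurred in 17.2%, 12.9% and 13.8% of these groups. These letters are a description of sequence, and 26 of the 244 models start at the start codon itself, so that their stretch need not be a promoter.

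Nearly all of these receptor genes lay in H3K9me2 domains before EHMT2 was depleted, and fewer did so afterwards. In mESC DMSO, 233 of 244 starts were inside, or 95.5% (Wilson 95% interval 92.1% to 97.5%), and in mESC dTAG 192 were, or 78.7% (73.1% to 83.4%). In 2CLC DMSO, 229 starts were inside, or 93.9% (90.1% to 96.2%), and in 2CLC dTAG 201 were, or 82.4% (77.1% to 86.6%). The unnamed set held 236, or 96.7% (93.7% to 98.3%). The intervals treat each gene as 1 trial, although neighbours share a domain, and cover no variation between cultures.

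Taken over the whole chromosome, the starts of genes that are not Olfr genes behaved otherwise in these lists. Of the other 1779 protein-coding genes of chromosome 7, 22.9% were inside in mESC DMSO and 26.9% in mESC dTAG, with 24.5% and 30.5% in the 2CLC sets. Those lying among the receptors did fall in mESCs. Of the 37 such genes, 31 were inside in mESC DMSO and 18 in mESC dTAG, against 33 and 32 in the 2CLC sets. Olfr genes on other chromosomes were inside in 88.0% and 87.1% of cases in the mESC sets and in 88.3% and 87.9% in the 2CLC sets. From DMSO to dTAG the share thus fell by more on chromosome 7 than in the rest of the family.

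Counted gene by gene, 43 of the 233 starts inside in mESC DMSO were outside in mESC dTAG, or 18.5%, against 22.7% of the 4862 protein-coding starts inside in mESC DMSO. In 2CLCs, 30 of 229 left, or 13.1%, against 18.3% of all protein-coding starts inside in 2CLC DMSO. With every domain widened by 5 kb on each side, the 2CLC count was 16 of 230. In both cell states the share that left lay below the share of all genes. It lay above that of their own family and chromosome, with 5.36% of the Olfr genes elsewhere and 10.1% of the other chromosome 7 genes leaving in mESCs, and 3.56% and 6.19% in 2CLCs. Few receptors were outside in DMSO and could enter. In mESCs 2 of 11 did, or 18.2% against 8.14% of all starts outside, namely Olfr521 and Olfr470, and in 2CLCs 2 of 15 did, or 13.3% against 9.80%, namely Olfr520 and Olfr521. Olfr genes elsewhere entered in 31.8% of cases in mESCs and 23.1% in 2CLCs.

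**Figure D1:**
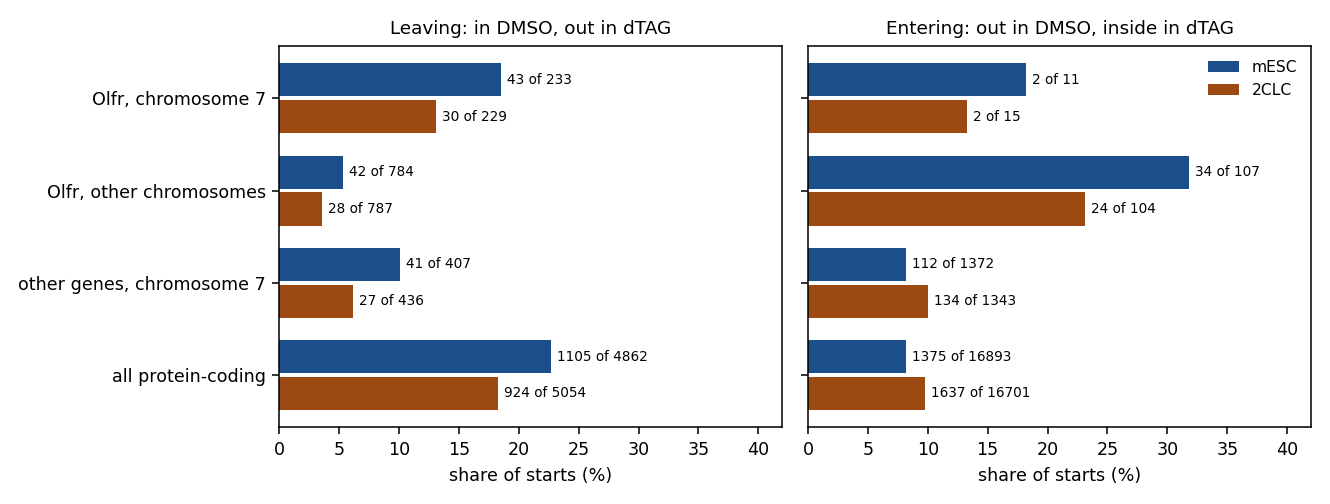
Share (%) of gene starts that left domains (left panel, of the starts inside in DMSO) or entered them (right panel, of the starts outside in DMSO) in mESCs and 2CLCs, for 4 groups of protein-coding genes, with the counts beside each bar. The chromosome 7 receptors left at 18.5% and 13.1%, above the Olfr genes of other chromosomes (5.36% and 3.56%) and below all protein-coding genes (22.7% and 18.3%).

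The receptors that left were in part the same in both cell states. Of the 43 that left in mESCs and the 30 that left in 2CLCs, 14 left in both, which is 32.6% of the first list and 46.7% of the second. Over all protein-coding genes the shared 354 were 32.0% and 38.3%. Across the 4 sorted sets, 173 of the 244 receptors were inside throughout and 7 were outside throughout, namely Olfr1344, Olfr543, Olfr544, Olfr545, Olfr649, Olfr522 and Olfr523. Of these, Olfr649 was also outside in the unnamed set, and the other 6 were inside it.

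Gaps of over 1 Mb between neighbouring genes part the receptors into 7 clusters, numbered along the chromosome. A cluster was called inside a set where at least 50% of its starts were in domains. Cluster 1 (chr7:6438688-6571401) has 8 genes, cluster 2 (chr7:84853553-84920861) 3, cluster 3 (chr7:86268487-86697507) 15 and cluster 4 (chr7:99730273-99769321) 2. Cluster 5 (chr7:102476579-105369355) has 129 genes and is the class I cluster, cluster 6 (chr7:106675005-108894420) has 68 and cluster 7 (chr7:140159999-140705606) has 19. By this rule 6 of the 7 clusters were inside in each mESC set, 5 in 2CLC DMSO, 6 in 2CLC dTAG and 7 in the unnamed set.

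By this rule cluster 1 was the only cluster that left, in mESCs, and cluster 4 was the only one that entered, in both cell states. In 2CLCs no cluster left, and cluster 1 was already outside in 2CLC DMSO. Clusters 2, 3, 5, 6 and 7 were inside in all 5 sets. When at least 80% of the starts had to be inside, clusters 5 and 7 also left in mESCs, cluster 7 left in 2CLCs and cluster 4 entered in 2CLCs but not in mESCs. Cluster 7 was close to the limit in mESC dTAG, with 10 of 19 starts inside, and also turned to outside there when every domain was narrowed by 5 kb, when genes were placed by their start codon or when 50% of the gene body had to be covered.

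**Figure D2:**
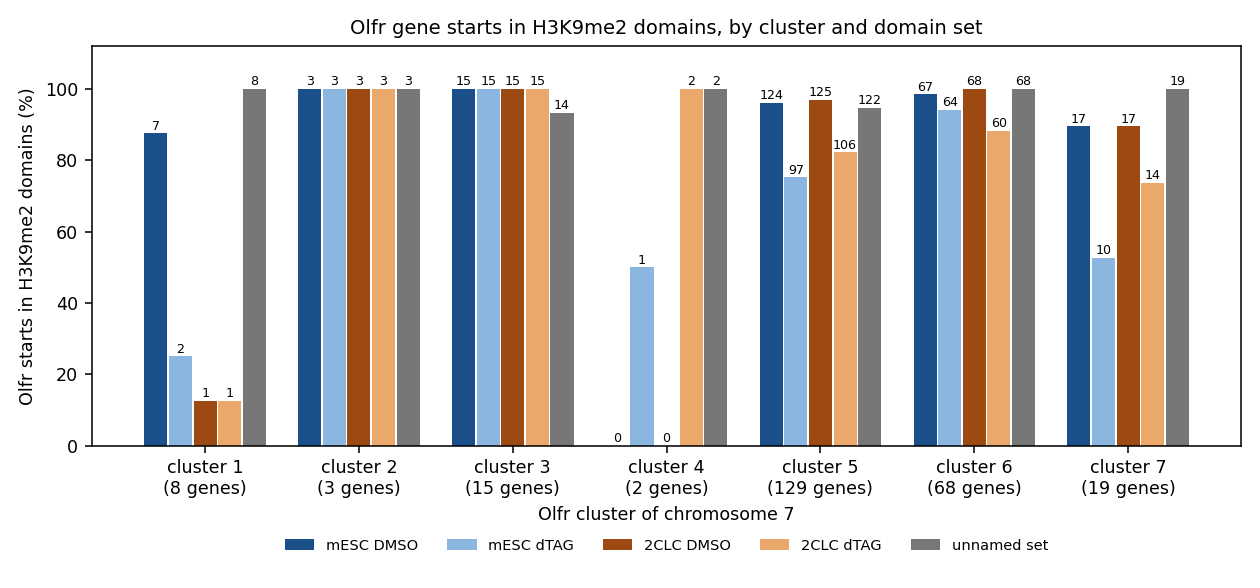
Share (%) of Olfr starts inside H3K9me2 domains for each of the 7 clusters of chromosome 7, with 1 bar per domain set and the number of starts inside above it. Cluster 1 falls from 7 of 8 in mESC DMSO to 2 in mESC dTAG and 1 in each 2CLC set, cluster 4 has 0 in both DMSO sets, and the class I cluster (cluster 5) holds 124, 97, 125, 106 and 122 of 129.

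Cluster 1, near the end of the chromosome that holds the centromere, runs from Olfr1344 to Olfr1350 between the flanking genes Smim17 and Zim1, the latter an imprinted zinc finger gene. Of its 8 starts, 7 were inside in mESC DMSO and 2 in mESC dTAG, while each 2CLC set held 1 and the unnamed set held 8. Domains covered 99.3% of its span in mESC DMSO, 39.0% in mESC dTAG, 31.5% and 35.2% in the 2CLC sets and 100% in the unnamed set. The 5 receptors from Olfr1336 to Olfr1348 (Olfr1336, Olfr1346, Olfr5, Olfr1347 and Olfr1348) were inside in mESC DMSO and outside in the 3 other sorted sets. They fell in 1 stretch of 240 kb without a domain in mESC dTAG, which begins before the cluster. Olfr1350, the last gene, stayed inside in all 5 sets.

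This cluster also held every receptor that mESCs had inside in DMSO and 2CLCs did not. They were 6 of 233 starts, or 2.58%, against 13.9% of all protein-coding starts inside in mESC DMSO. The share was 3.19% for Olfr genes elsewhere and 6.39% for the other chromosome 7 genes. The flank Smim17 was outside in all 5 sets and Zim1 was inside in 2CLC DMSO and the unnamed set. In the opposite direction, 2 of the 11 receptors outside in mESC DMSO were inside in 2CLC DMSO, namely Olfr571 and Olfr470. That is 18.2%, against 5.13% of all protein-coding starts outside in mESC DMSO. The share was 26.2% for Olfr genes elsewhere and 4.01% for the other chromosome 7 genes. Of the 8 receptors that differed between the cell states with DMSO, 6 were thus in cluster 1.

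Cluster 4, the pair Olfr520 and Olfr521 between the organic anion transporter gene Slco2b1 and the sialidase gene Neu3, was far from any domain in DMSO. The start of Olfr521 was 1459 kb from the nearest domain in mESC DMSO and 991 kb in 2CLC DMSO. In mESC dTAG it lay 11.0 kb inside a domain of 30 kb, and in 2CLC dTAG 21.0 kb inside one of 45 kb. Olfr520 stayed 14.3 kb outside in mESC dTAG and lay 4.26 kb inside a domain of 20 kb in 2CLC dTAG. In the unnamed set a domain of 85 kb held both. Domains covered 63.5% of the span in mESC dTAG and 87.2% in 2CLC dTAG, and both flanking genes were outside in the 4 sorted sets.

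The domains of cluster 4 in the dTAG sets were all narrower than 50 kb. When domains narrower than that were left out, the cluster was outside in all 4 sorted sets. Its call in mESC dTAG also rests on 1 of 2 starts, exactly the limit. The start codon of Olfr520, 4872 bases from the gene start, was outside in 2CLC dTAG. The 10 kb around the starts of this pair had a median GC content of 44.8%, above the 38.2% of all chromosome 7 receptors.

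**Figure D3:**
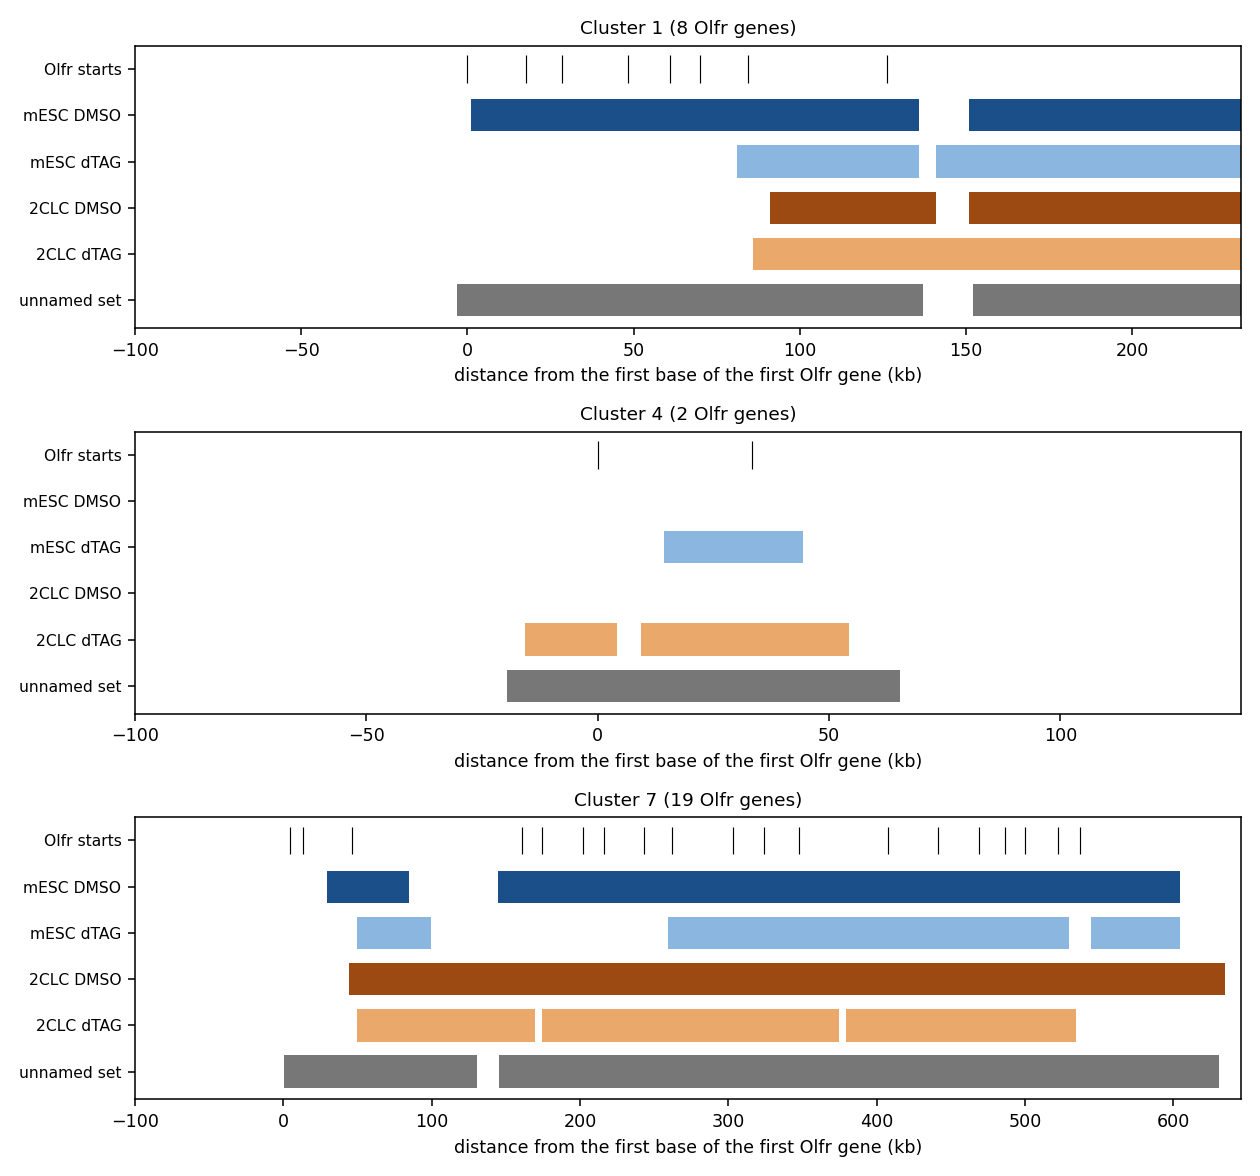
H3K9me2 domains (bars) of the 5 sets over clusters 1, 4 and 7 with 100 kb on each side, by distance in kb from the first base of the first Olfr gene, with Olfr starts as ticks. In mESC dTAG and both 2CLC sets the domain of cluster 1 covers no more than its last genes, cluster 4 has domains in the dTAG and unnamed sets alone, and in cluster 7 the starts from Olfr524 to Olfr531 lie outside domains in mESC dTAG.

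Cluster 7, from Olfr522 to Olfr541 near the far end of the chromosome, lies between Sprn, which encodes a prion-like protein, and the cytochrome P450 gene Cyp2e1. It kept 10 of its 17 starts in mESC dTAG and 14 of 17 in 2CLC dTAG. The 7 receptors that left in mESCs (41.2% of 17) were the 6 neighbours from Olfr524 to Olfr531, spread over 197 kb, and Olfr541 at the far end. In 2CLCs 3 of the same receptors left, namely Olfr524, Olfr527 and Olfr541. The 10 receptors from Olfr532 to Olfr45 were inside in all 5 sets, while Olfr522 and Olfr523 were inside in the unnamed set alone.

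The class I cluster, with 129 of the 244 receptors, held the largest number of changes. Its share leaving, 21.8% in mESCs and 15.2% in 2CLCs, was near that of all protein-coding genes (22.7% and 18.3%) and in mESCs below those of cluster 1 (71.4%) and cluster 7 (41.2%). Domains held 124 of its 129 starts in mESC DMSO and 97 in mESC dTAG, against 125 and 106 in the 2CLC sets and 122 in the unnamed set. In the same order they covered 95.6%, 77.6%, 97.3%, 88.0% and 91.9% of its span. The cover was in fewer pieces in DMSO, with 6 domains in mESCs and 2 in 2CLCs, against 13 in each dTAG set and 8 in the unnamed set. In 2CLC DMSO, 1 domain of 1680 kb held most of the receptors before the first large group of Trim genes, and Olfr543, Olfr544, Olfr545 and Olfr649 lay outside it.

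Of the 27 class I receptors that left in mESCs, 18 lay in the first 500 kb of the cluster, where 32 of its 129 members start. In 2CLCs 12 of the 19 that left lay there. The last stretch of the cluster, from 2500 kb on, lost 4 of its 18 members in each state. The 23 members between 500 and 1000 kb lost none in mESCs and 1 in 2CLCs.

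The longest run of neighbours that left in both cell states was Olfr547 to Olfr552, 6 class I receptors whose starts span 63.0 kb. Olfr547 lay 5.22 kb inside a domain in mESC DMSO and 64.8 kb from the nearest one in mESC dTAG, and Olfr552 went from 68.2 kb inside to 1.76 kb outside. In 2CLCs Olfr547 went from 20.2 kb inside to 79.8 kb outside, and Olfr552 from 83.2 kb inside to 16.8 kb outside. The near edge of the domain had thus moved into the cluster in both states.

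Beyond this run the cell states parted in part within the same 500 kb. In mESCs the runs Olfr555 to Olfr33 (5 receptors), Olfr566 to Olfr570 (4) and Olfr572 to Olfr574 (3) left, while in 2CLCs Olfr558 to Olfr560 (5) and the single receptor Olfr566 left. Among these, Olfr558, Olfr33 and Olfr566 left in both states. Elsewhere in the cluster, Olfr67, Olfr66, Olfr643, Olfr648, Olfr652, the 3 members Olfr685, Olfr686 and Olfr688, and Olfr692 left in mESCs. In 2CLCs Olfr586, Olfr633, Olfr642, Olfr675, Olfr676, Olfr683 and Olfr684 left. No receptor after Olfr566 in the class I cluster left in both states. The model of Olfr643 is longer than 30 kb, the only one of the 244, so that its start may lie far from its coding exon.

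**Figure D4:**
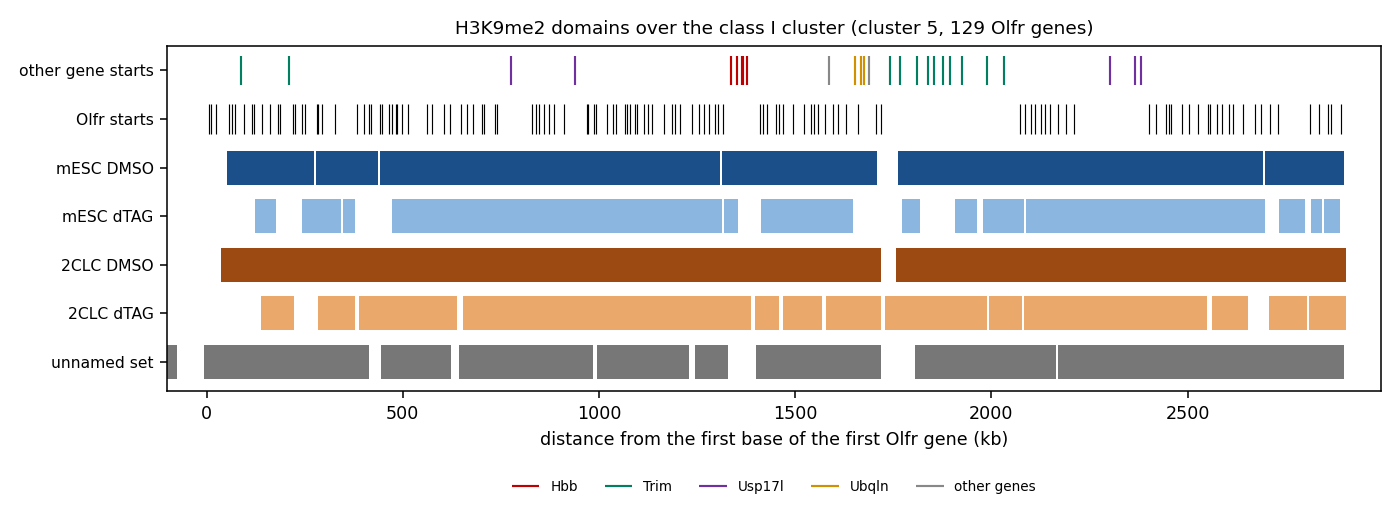
H3K9me2 domains (bars) of the 5 sets over the class I cluster with 100 kb on each side, by distance in kb from the first base of the first Olfr gene, with ticks for the starts of the 129 Olfr genes and of the other protein-coding genes between them. The first 500 kb hold 18 of the 27 receptors that left in mESCs and 12 of the 19 that left in 2CLCs.

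Among the class I receptors with a known ligand or site of expression, the placements differed. Olfr78, which is also expressed outside the nose, as in the oxygen-sensing carotid body, was inside in mESC DMSO, mESC dTAG and 2CLC DMSO and 0.055 kb outside in 2CLC dTAG. Olfr558, its neighbour in the same run of 2CLCs, was outside in both dTAG sets, by 17.3 kb in mESCs and 2.69 kb in 2CLCs. Olfr544 and Olfr545, at the near end of the cluster, were outside in all 4 sorted sets and inside the unnamed set. Of these 4 receptors only Olfr558 left in both states. The call of Olfr78 by its start would turn by shifting the domain edge by 1 bin of 5 kb. Its whole model, with the start codon, nonetheless lay in a gap of 60 kb between domains of 2CLC dTAG.

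The genes that lie between the class I receptors changed more in mESCs than in 2CLCs. The 5 beta-globin genes were all inside in mESC DMSO and in both 2CLC sets, and in mESC dTAG the adult genes Hbb-bt and Hbb-bs were inside while Hbb-bh2 and the embryonic genes Hbb-bh1 and Hbb-y were outside. All 5 were outside in the unnamed set. Of 12 Trim genes, relatives of antiviral restriction factors, 11 were inside in mESC DMSO and 4 in mESC dTAG, against 11 and 10 in the 2CLC sets. The 3 Ubqln genes, ubiquilins that bind ubiquitinated proteins, went from 3 inside to 0 in mESCs and stayed at 3 in 2CLCs. The 5 Usp17l deubiquitinase genes were inside in all 5 sets. The flanks Rrm1, a subunit of ribonucleotide reductase, and Fam160a2 were outside in all 5 sets.

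Cluster 6, the large class II cluster from Olfr693 to Olfr519, lost fewer receptors in mESCs than in 2CLCs. Domains held 67 of its 68 starts in mESC DMSO and 64 in mESC dTAG, and 68 in 2CLC DMSO and 60 in 2CLC dTAG. In mESCs, Olfr713, Olfr484, Olfr518 and Olfr519 left (5.97% of 67), and Olfr470 entered from 2.03 kb outside. In 2CLCs the 8 that left (11.8% of 68) were Olfr711, Olfr2, Olfr713, Olfr715 and the run Olfr481 to Olfr484. This run lay in a single gap of 50 kb in 2CLC dTAG. In mESCs and 2CLCs the shares leaving were below those of all protein-coding genes (22.7% and 18.3%). They were above those of Olfr genes elsewhere (5.36% and 3.56%). Olfr713 and Olfr484 left in both states.

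Olfr2, the receptor I7 that responds to aldehydes, was inside in mESC DMSO, mESC dTAG and 2CLC DMSO and 36.6 kb outside in 2CLC dTAG. Olfr17 was inside in all 5 sets by its gene start, yet it lay only 1.30 kb inside in mESC dTAG, and its start codon, 4247 bases on, was outside there. Olfr484 had been 278 kb inside a domain in mESC DMSO and 388 kb in 2CLC DMSO, and lay 2.07 kb outside in both dTAG sets. Olfr652 of the class I cluster likewise went from 321 kb inside to 1.38 kb outside in mESCs. In mESC dTAG the starts of Olfr484 and Olfr652 each lay in a gap of 5 kb between domains, the width of 1 bin. In 2CLC dTAG the gap that held Olfr484 was 50 kb wide.

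**Figure D5:**
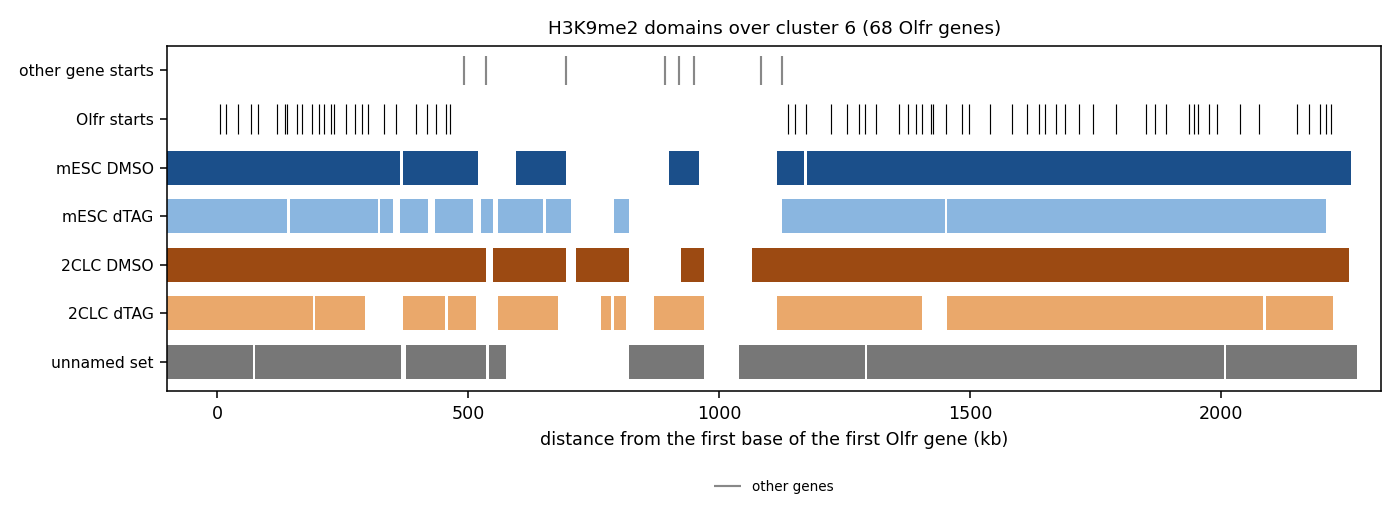
H3K9me2 domains (bars) of the 5 sets over cluster 6 with 100 kb on each side, by distance in kb from the first base of the first Olfr gene, with ticks for the 68 Olfr starts and the 8 other protein-coding genes within the span. The receptors lie in 2 groups, and the stretch between them, with the other genes, lies in part outside domains in all 5 sets.

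Clusters 2 and 3 did not change. All 3 starts of cluster 2, from Olfr291 to Olfr290, were inside in all 5 sets, beside the vomeronasal receptor gene Vmn2r65 that was also inside in all of them. The 15 starts of cluster 3, from Olfr310 to Olfr292, were inside in the 4 sorted sets, and Olfr293 alone was outside in the unnamed set. The GC content around the starts was lowest in these clusters, with medians of 35.6% and 35.2%, and highest in clusters 4 and 7, with 44.8% and 43.0%.

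In dTAG the cell states differed over more receptors than in DMSO. Of the 192 starts inside in mESC dTAG, 17 were outside in 2CLC dTAG, or 8.85% against 14.1% of all protein-coding starts. The share was 4.12% for Olfr genes elsewhere and 7.32% for the other chromosome 7 genes. In the opposite direction, 26 of the 52 receptors outside in mESC dTAG were inside in 2CLC dTAG, or 50% against 8.16% of all protein-coding starts and 33.9% of the Olfr genes elsewhere. Of these 26, 19 were class I receptors, 4 were in cluster 7 (Olfr525, Olfr60, Olfr530 and Olfr531), 2 in cluster 6 (Olfr518 and Olfr519) and 1 was Olfr520. The 17 were 10 class I receptors from Olfr559 to Olfr684, 6 in cluster 6 and Olfr1349.

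By their medians, receptors that left had lain nearer to a domain edge in DMSO. In mESCs the 43 that left had a median distance of 40.1 kb to the nearest edge of their DMSO domain (range 1.13 to 321 kb), and the 190 that stayed one of 192 kb (4.83 to 766 kb). In 2CLCs the medians were 209 kb for the 30 that left (1.49 to 611 kb) and 326 kb for the 199 that stayed (2.62 to 835 kb). The ranges overlapped widely in both states. Neighbours share a domain and its edge, so these distances are not independent. They were also measured on the DMSO lists that define leaving, so the difference is no separate support. The same distances were not computed for all protein-coding genes.

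After leaving, most of these receptors remained close to a dTAG domain. In mESCs the median distance to the nearest one was 11.5 kb (0.456 to 74.5 kb), with 14 of the 43 starts within 5 kb and 26 within 20 kb. In 2CLCs it was 6.38 kb (0.055 to 79.8 kb), with 14 of 30 within 5 kb and 21 within 20 kb. A distance of 5 kb is 1 bin of the grid on which domains were called. The 43 starts lay in 17 gaps between dTAG domains and the 30 in 14, and 35 and 22 of them were in gaps of at least 50 kb.

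The spans of the 7 clusters, 6.33 Mb in all, were covered to 88.9% in mESC DMSO and 77.2% in mESC dTAG, to 92.2% and 84.4% in the 2CLC sets and to 89.4% in the unnamed set. The whole of chromosome 7 was covered to 50.7%, 44.3%, 47.5%, 45.1% and 59.5%. Domains in the spans numbered 17, 31, 12, 33 and 26. The number on the whole chromosome rose 1.80 times from DMSO to dTAG in mESCs and 2.12 times in 2CLCs, so that finer pieces were not particular to the receptors.

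The chromosome 7 receptors shared a low GC content, which the choice of genes did not use, with the rest of the family. In the 10 kb around each start, the median GC content was 38.2% for the 244 receptors, 36.8% for Olfr genes elsewhere, 47.4% for the other chromosome 7 genes and 45.6% for all protein-coding genes. Soft-masked repeats made up a median of 31.9%, 33.2%, 26.4% and 24.6%. The receptors that left in mESCs had a median GC content of 40.6% and those that stayed 37.6%, and in 2CLCs the values were 38.9% and 37.9%. Repeats made up 28.3% and 33.9% in mESCs and 26.6% and 33.4% in 2CLCs.

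Sequence that recurs on the chromosome had a lower median share around receptors that left. Of the 50-base words around each start, the median share found more than once on chromosome 7 was 2.81% for receptors that left in mESCs and 4.76% for those that stayed, and 3.08% and 4.37% in 2CLCs. For the other genes of the chromosome it was 2.05%. Within the class I cluster the medians were 2.81% and 5.10% in mESCs, and 2.63% and 4.79% in 2CLCs. Between clusters the order was not the same. Cluster 3, where none left, had a median of 0.990%, cluster 1 had 2.98% and cluster 7 had 6.44%. Reads that matched several places were placed at 1 of them at random. The reads were longer than 50 bases, so a recurring word need not give such a read. The part of recurring sequence and of base composition in the placements was not tested.

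Homeodomain letters before the start were less frequent among receptors that left in mESCs. TAATTA or TAATGA occurred before 10 of the 43 that left (23.3%) and before 85 of the 190 that stayed (44.7%). In 2CLCs they occurred before 12 of 30 (40%) and 84 of 199 (42.2%). The clusters themselves differed, with 30.2% of the 129 class I receptors and 61.8% of the 68 receptors of cluster 6. In mESCs, 27 of the 43 that left and 97 of the 190 that stayed were class I. The part of the clusters in this difference was not tested.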

How the data were processed

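H3K9me2 was profiled by ULI-NChIP, a native immunoprecipitation for small cell numbers, with antibody ab1220. According to the study's methods, the authors trimmed reads, aligned them with STAR 2.7.10 with 1 random placement of reads that match several places, removed duplicates with Picard 2.26.0 and regions of artificially high signal with SAMtools 1.14, and computed coverage with deepTools 3.5.1. Overlapping windows on a 5 kb step were given the log2 of immunoprecipitation over input, and domains were grown from bins above a high percentile to bins below a low one. Whether replicates were pooled was not given in the sources used here. The deposited lists hold chromosome, start and end (other, in mm10 coordinates) and a score that is 0 throughout. They hold no read counts, so depth is unknown and its effect on the calls could not be assessed.

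From these lists, gene starts of GENCODE M21 were placed in domains with Python 3.11.15, numpy 2.4.6 and pandas 2.3.3. The placement code was checked on constructed intervals with known answers. No condition had a list per replicate, so comparisons are descriptions without a test, with Wilson intervals over genes. Cluster members were parted by gaps over 1 Mb. The members, the lists of neighbouring genes and the rules were chosen with earlier results of these data known. The genes named were 6 receptors known from the literature, the ends and flanks of each cluster, the members that changed (as runs of neighbours) and the Hbb, Trim, Usp17l and Ubqln genes within the spans. The RefSeq GRCm38.p6 promoter table held 207 of the 243 symbols, but 154 of these entries begin at the GENCODE start codon, so the 250 bases before each start were read from the GRCm38.p6 genome at the GENCODE starts, for display only where the table had an entry. This choice was made after the table was examined. All domains ended within the chromosome lengths of that assembly. Alternatives were the minimum width, domain edges, joined gaps, gene bodies, pseudogenes, other cluster rules, leaving out a cluster and placement by start codon, the last chosen after seeing the data.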

Additional observations from a re-analysis of the deposited data

How the results depend on the processing

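No paired analysis was possible because each condition has 1 list with no replicate columns, and leaving out a replicate was not possible for the same reason. In total, 19 values were recomputed under 16 other settings. Of the 188 recomputed values, 159 stayed within 1.5 times of a count or within the Wilson interval of a share, and 29 moved beyond. For the cover of spans, that interval took each bin of 5 kb as 1 trial. Neighbouring genes and bins share domains, so these limits only sort the values and measure no spread between cultures. The share of starts inside was lower in dTAG than in DMSO in 12 of 12 settings in both cell states, and cluster 1 had the same calls in all settings in which clusters were called. With domains of at least 50 kb only, entering receptors numbered 1 in mESCs and 0 in 2CLCs, and spans were covered to 71.9% in mESC dTAG. With domains widened by 5 kb on each side, the share inside was 84.4% in mESC dTAG, 88.9% in 2CLC dTAG and 99.6% in the unnamed set, entering fell to 1 in mESCs, leaving to 16 in 2CLCs, and spans were covered to 80.8%, 87.9% and 92.0% in the same 3 sets. With domains narrowed by 5 kb, the unnamed share was 92.6%, entering in mESCs was 5, and spans were covered to 86.9% in mESC DMSO and 73.0% in mESC dTAG, to 79.9% in 2CLC dTAG and 86.3% in the unnamed set. Joining gaps of at most 20 kb gave 1 entering in mESCs and spans of 86.5% in 2CLC dTAG and 91.5% in the unnamed set, and counting any base of the gene body gave 1 entering in mESCs and 98.8% inside in the unnamed set. Parting clusters by gaps over 2 Mb left 3 of 5 clusters inside in 2CLC DMSO, and asking for 80% of starts left 3 of 7 inside in mESC dTAG (clusters 2, 3 and 6). Leaving out each cluster of at least 10 members in turn gave shares of 94.3% to 96.0% in mESC DMSO and 72.7% to 82.6% in mESC dTAG, of 90.4% to 94.2% and 80.1% to 83.1% in the 2CLC sets, and of 95.5% to 99.1% in the unnamed set. Leaving numbered 16 to 43 in mESCs and 11 to 30 in 2CLCs, both lowest without cluster 5, and entering 1 to 2 in mESCs, lowest without cluster 6. The cause of the other moves was not tested. Without replicates or depth, no error between cultures can be given.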

Other observations

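The annotation also holds 49 Olfr pseudogenes on chromosome 7, which were not counted above. Of these, 47 were inside in mESC DMSO and 42 in mESC dTAG, against 47 and 44 in the 2CLC sets and 47 in the unnamed set. From DMSO to dTAG, 5 left in mESCs and 3 in 2CLCs. In shares these are 95.9%, 85.7%, 95.9% and 89.8% of the pseudogenes inside in the sorted sets, beside 95.5%, 78.7%, 93.9% and 82.4% of the protein-coding receptors.

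Of the 37 protein-coding genes that are not receptors but lie within the cluster spans, 31 were inside in mESC DMSO and 18 in mESC dTAG, against 33 and 32 in the 2CLC sets and 29 in the unnamed set. Those within cluster 6 include Nlrp14, a gene of the oocyte and early embryo, which was inside in all 5 sets, and Syt9, a synaptotagmin, which was inside in mESC dTAG alone. Trim6 in the class I cluster was inside in 2CLC dTAG alone.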
